A study of Mus musculus with 6 samples.

Results

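The 6 genes described here are Pou5f1, Sall4, Zfp281, Nr5a2, Tcf3 and Sall1, transcription factors of the pluripotency network taken by name from the deposited count table. All 6 were found, each in a single entry of the 48440 genes in the table, and all 6 passed the filter on low counts that left 14664 genes for testing. The series compared 3 clones of mouse iPSCs (induced pluripotent stem cells) carrying a Cas9 knockout of Tet1, an enzyme that oxidises 5-methylcytosine, with 3 non-targeted clonal lines of the same male iPSC line, which was reprogrammed from wild-type embryonic fibroblasts. The strain label names the Tet1tm1Kohx allele and the Tg(Pou5f1-EGFP)2Mnn reporter transgene, and the genotype label gives wt/wt;GFP/wt for all 6 lines, with Tet1 Cas9 mut/mut added for the knockout. Every line is therefore labelled wild type at the strain's own Tet1 allele and carries a single dose of the reporter, in which Pou5f1 regulatory sequence drives EGFP. Clones 14, 30 and 33 carry the knockout and are named KO1, KO2 and KO3 here. Clones 49, 51 and 52 were not targeted and are named NT1, NT2 and NT3. Where 3 values are given for a group, they follow this order. The labels give both groups the same protocol text: 14 passages, delivery of Cas9 protein with its Tet1 guide and a donor oligonucleotide, a repair enhancer for 12 h, colony picking and 4 more passages. The lines were expanded on fibroblast feeders and taken off them before RNA was extracted. Each line is 1 clone, and the tests take their error from how far clones of a single parental line differ.

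As background, pluripotent cells pass from a naive state, which resembles the epiblast before implantation, through a formative state to a primed state, and some transcription factors serve in all of them. Pou5f1 (OCT4) binds octamer motifs, usually beside Sox2, and is needed for every pluripotent state. Sall4 and Sall1 are zinc finger proteins that bind the NuRD deacetylase complex, and Sall4 supports Pou5f1 transcription. Zfp281 is a zinc finger protein that binds G-rich DNA, interacts with Tet1 and promotes the passage from the naive to the primed state. Nr5a2 (LRH-1) is a nuclear receptor of the naive network that binds the Pou5f1 promoter and can stand in for Pou5f1 in reprogramming. Tcf3 encodes the E proteins E12 and E47, which bind E-boxes; older stem cell literature uses the name TCF3 for a different gene, Tcf7l1, whose values are therefore given beside it.

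Upstream sequences are shown for 3 of the 6 genes. Pou5f1 is shown because its level varied least among the knockout clones, and Nr5a2 and Sall1 because they shared the widest variation. They come from the RefSeq promoter table (GRCm38.p6), in which 5 of the 6 genes matched, and each is the 250 bases before the annotated start nearest to the 5′ end of the counted gene, printed 5′ to 3′ on the strand of the gene. Capitals mark matches, on either strand, to 4 motifs: the octamer ATTTGCAT, the NR5A core TCAAGG, the E-box CAGGTG and the G-rich run GGGGAGGG.
Pou5f1, chr17:35505782-35506031, plus strand: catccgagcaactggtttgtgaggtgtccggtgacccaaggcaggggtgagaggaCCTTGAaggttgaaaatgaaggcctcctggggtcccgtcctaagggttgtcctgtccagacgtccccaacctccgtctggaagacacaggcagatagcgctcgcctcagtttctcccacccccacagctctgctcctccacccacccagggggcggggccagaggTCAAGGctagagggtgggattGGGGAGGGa
Nr5a2, chr1:136960449-136960698, minus strand: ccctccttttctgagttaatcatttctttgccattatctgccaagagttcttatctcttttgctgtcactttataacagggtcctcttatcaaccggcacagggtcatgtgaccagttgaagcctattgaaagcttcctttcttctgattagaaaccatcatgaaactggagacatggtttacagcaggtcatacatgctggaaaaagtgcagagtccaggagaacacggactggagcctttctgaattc
Sall1, chr8:89044163-89044412, minus strand: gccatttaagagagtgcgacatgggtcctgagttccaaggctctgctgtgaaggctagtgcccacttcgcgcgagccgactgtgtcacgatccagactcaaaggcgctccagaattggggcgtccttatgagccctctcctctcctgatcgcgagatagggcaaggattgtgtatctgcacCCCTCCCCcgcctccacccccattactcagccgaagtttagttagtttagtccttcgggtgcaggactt

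The Pou5f1 window held the NR5A core at 2 places, positions -195 to -190 on the minus strand and -30 to -25 on the plus strand, counted from the start site. It also held the G-rich run at positions -9 to -2. The Sall1 window held the G-rich run at positions -69 to -62 on the minus strand, and the Nr5a2 window held none of the motifs. No matches overlapped each other. Among all 32851 windows of the same length in the table, 1.6% held the octamer, 12.5% the NR5A core, 17.2% the E-box and 9.69% the G-rich run. CpG dinucleotides, the sites that Tet1 acts on, numbered 8 in the Pou5f1 window, 2 in the Nr5a2 window and 13 in the Sall1 window, where the median of all windows was 6 and the quartiles were 2 and 16. The windows of Zfp281 and Tcf3, not printed, had 19 and 18 CpGs and none of the motifs. These matches describe the letters in the windows and are not measured binding or methylation.

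The libraries held between 11937909 and 16189554 counted reads. Levels are given as CPM, the count of a gene relative to the size of its library after TMM scaling. As a check of the labels, Tet1 stood at 365, 231 and 288 CPM across the KO clones against 1158, 966 and 1034 CPM across the NT clones, with a log2 fold change of -1.84 ± 0.16 (SE; edgeR adjusted p = 0.0703). Its adjusted p was 9.43e-20 in DESeq2 and 0.0431 in limma voom. The pluripotent identity of the lines was checked with 12 marker genes. All 12 were expressed, with a summed level of 4255 to 5435 CPM across the KO clones and 5277 to 5699 CPM in the non-targeted libraries. Of the 12, 10 had a log2 fold change below 0, beside 49.7% of all tested genes, and the list median was -0.30. Relative to the non-targeted mean, the median marker stood at -0.06, -0.39 and -0.52 on the log2 scale across the KO clones. The fibroblast list, which could report feeder cells left in the samples, had 22 of 24 genes above the filter and none at 0. Its summed level ran from 1585 to 2064 CPM across the KO clones and from 1714 to 2010 CPM in the non-targeted libraries. Fn1 and Sparc made up most of that sum in every library except KO3. The other 20 genes, a subset formed after their values were seen, summed to 387, 476 and 1060 CPM across the KO clones and to 206, 331 and 307 CPM across the NT clones. In such bulk samples fewer cells of a type and less RNA per cell cannot be told apart.

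None of the 6 genes passed the main test, edgeR's quasi-likelihood test with Benjamini-Hochberg adjustment over all tested genes at 0.05. That test called 0 genes in the whole table (0%), with 3 of the 6 genes and 24.8% of all genes at an unadjusted p under 0.05. DESeq2 called 8.65% of the genes with an adjusted p and limma voom 0.00682%, and neither called any of the 6. All 6 had a log2 fold change below 0, as did 49.7% of the tested genes, and their median was -0.21 against 0.00 over all genes. The name of the group, factors kept across pluripotent states, could not be checked here, since the series has no naive or primed condition. In these clones the 6 genes did not behave alike. By profile over the libraries each gene lay closest to 1 other of the 6: Pou5f1 to Tcf3, Sall4 to Zfp281, and Nr5a2 to Sall1.

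Pou5f1 (ENSMUSG00000024406.16; chromosome 17, 35506018 to 35510772, plus strand, GRCm38) had 684, 692 and 675 CPM across the KO clones and 744, 748 and 849 CPM across the NT clones. The groups did not overlap, and the knockout clones lay closer together than the non-targeted ones, at 684 ± 8.54 against 780 ± 59.6 CPM (SD, n = 3). The log2 fold change was -0.19 ± 0.07 (SE; edgeR adjusted p = 0.165; DESeq2 adjusted p = 0.204), a difference of -12.3% with a 95% interval from -21.9% to -1.6%. Leaving out any single library gave between -0.23 and -0.13. Reads from the Pou5f1-EGFP transgene, or from copies of Pou5f1 used in reprogramming if any remain, would be counted as Pou5f1 where their sequence is the same, and this was not tested.

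Tcf3 (ENSMUSG00000020167.14; chromosome 10, 80409514 to 80433647, minus strand) had 220.0, 231 and 219.7 CPM across the KO clones and 242, 250 and 275 CPM across the NT clones. These groups did not overlap either. The means were 223 ± 6.18 and 256 ± 17.3 CPM (SD, n = 3), with a log2 fold change of -0.19 ± 0.07 (edgeR adjusted p = 0.170; DESeq2 adjusted p = 0.199) and an interval from -22.5% to -1.45%. Of all tested genes 14.7% lay lower in every knockout than in every non-targeted library, so 2 of 6 in this position is to be read against that share. Tcf7l1, which represses pluripotency genes downstream of Wnt, had 201, 203 and 199 CPM against 214, 217 and 247 CPM, and a log2 fold change of -0.17 ± 0.08 (edgeR adjusted p = 0.224). Both genes that have carried the name TCF3 thus stood about as far below the non-targeted mean as Pou5f1 did.

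Sall4 (ENSMUSG00000027547.17; chromosome 2, 168748332 to 168767943, minus strand) had 634, 564 and 480 CPM across the KO clones and 700, 603 and 652 CPM across the NT clones. KO1 lay inside the non-targeted range and KO2 and KO3 below it. The log2 fold change was -0.22 ± 0.11 (edgeR adjusted p = 0.257; DESeq2 adjusted p = 0.305), with an interval from -28.3% to 2.73%. Zfp281 (ENSMUSG00000041483.14; chromosome 1, 136624901 to 136630053, plus strand) had 219, 178 and 156 CPM against 225, 204 and 192 CPM. Again KO1 lay inside the non-targeted range and the other knockout clones below it, and the log2 fold change was -0.17 ± 0.13 (edgeR adjusted p = 0.448; DESeq2 adjusted p = 0.524; interval -28.0% to 10.1%). Without KO3 the fold changes were -0.12 for Sall4 and -0.06 for Zfp281.

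Nr5a2 (ENSMUSG00000026398.14; chromosome 1, 136842571 to 136960448, minus strand) had 139.8, 74.5 and 33.4 CPM across the KO clones, against 157, 119 and 129 CPM across the NT clones. KO1 lay inside the non-targeted range, while KO2 and KO3 stood at 55.2% and 24.8% of the non-targeted mean. The knockout mean of 82.6 ± 53.6 CPM and the non-targeted mean of 135 ± 19.8 CPM (SD, n = 3) differed by less than the spread between the knockout clones. The log2 fold change was -0.71 ± 0.44 (edgeR adjusted p = 0.337; DESeq2 adjusted p = 0.459), and its interval ran from -69.8% to 23.9%. It was -1.33 without KO1 and -0.33 without KO3.

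Sall1 (ENSMUSG00000031665.7; chromosome 8, 89027235 to 89044162, minus strand) had 236, 139 and 101 CPM across the KO clones and 266, 231 and 266 CPM across the NT clones. KO1 lay just above the lowest non-targeted library, and KO2 and KO3 stood at 54.8% and 39.9% of the non-targeted mean. The means were 159 ± 69.2 and 254 ± 20.4 CPM (SD, n = 3), with a log2 fold change of -0.68 ± 0.27 (edgeR adjusted p = 0.183; DESeq2 adjusted p = 0.0861) and an interval from -60.0% to -2.62%. The fold change was -1.09 without KO1 and -0.44 without KO3.

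**Figure D1:**
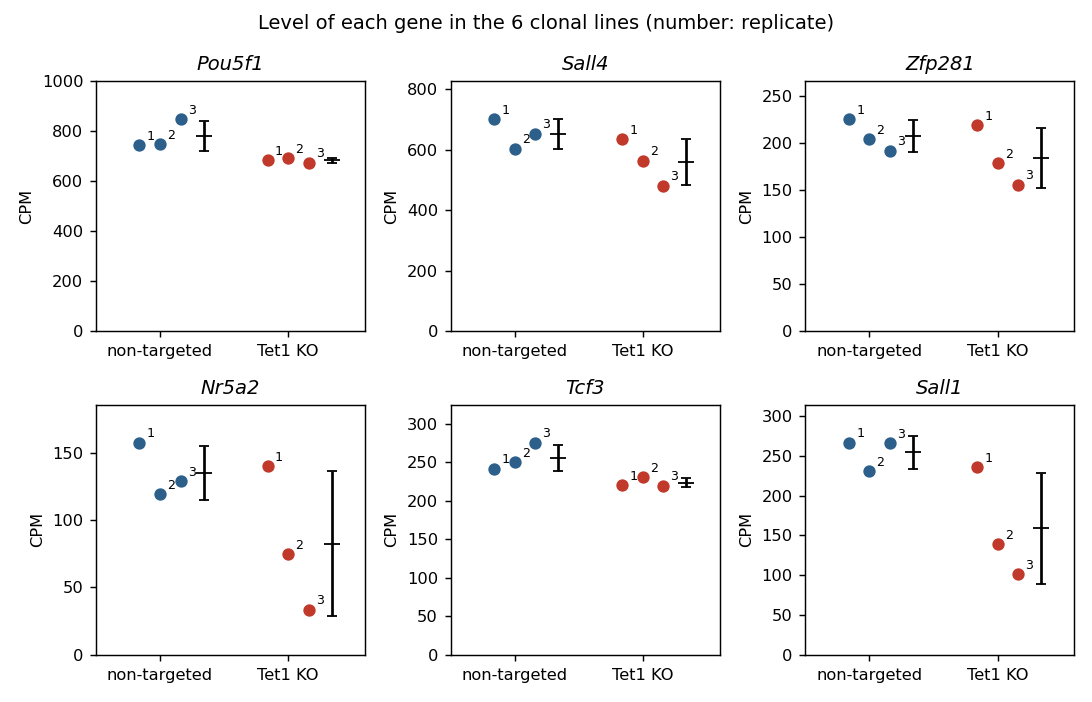
CPM of each of the 6 genes (y axis, from 0) in the 3 non-targeted and 3 Tet1 knockout libraries (x axis), with replicate numbers beside the points and the mean ± SD of 3 at the right of each group. Pou5f1 and Tcf3 are tightly grouped in the knockout, while Nr5a2 runs from 33.4 to 139.8 CPM and Sall1 from 101 to 236 CPM.

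KO1 decided the calls. Without it, edgeR called 29.1% of the genes tested and 4 of the 6: Nr5a2 (log2 fold change -1.33, adjusted p = 0.0114), Sall1 (-1.09, adjusted p = 0.00145), Sall4 (-0.33, adjusted p = 0.0317) and Zfp281 (-0.32, adjusted p = 0.0387). All 4 calls were lower in the knockout, as were 14% of the genes tested in that comparison. Pou5f1 and Tcf3 kept nearly the same fold change in it, at -0.20 and -0.19, and did not pass (adjusted p = 0.0899 and 0.109). Leaving out any other library gave no call among the 6 in edgeR. The comparison without KO1 sets 2 knockout clones against 3 non-targeted ones.

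**Figure D2:**
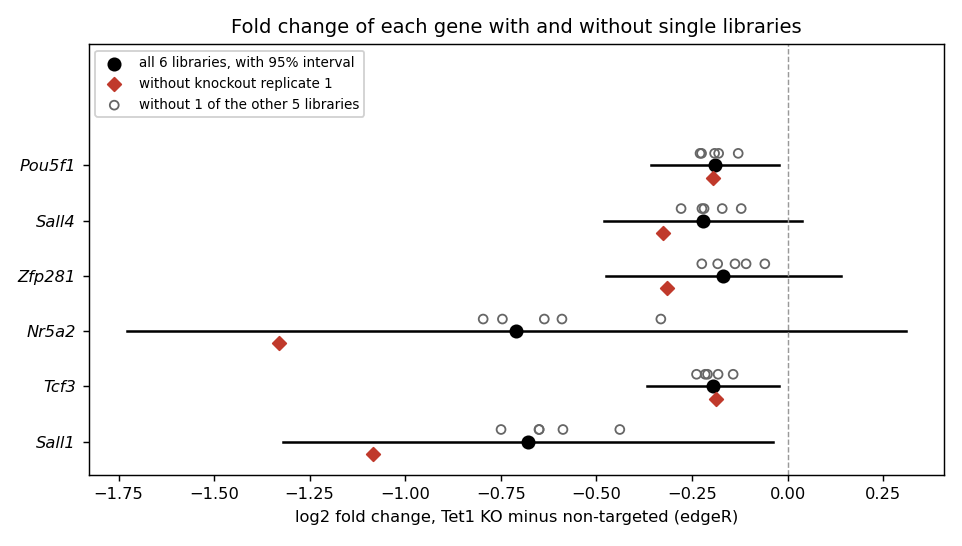
The edgeR log2 fold change, knockout minus non-targeted (x axis), of each gene (y axis) with all 6 libraries and its 95% interval (black), without KO1 (red diamonds) and without each other library (open circles). The diamonds of Nr5a2 and Sall1 sit at -1.33 and -1.09, while those of Pou5f1 and Tcf3 stay at -0.20 and -0.19.

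The spread over clones set the genes apart more than the difference of the means did. Over the 6 libraries Pou5f1 spanned 0.33 and Tcf3 0.32 on the log2 scale, below the median span of 0.45 among the 9119 genes with a mean of at least 10 CPM. Their spans exceeded those of 31.4% and 30.2% of these genes. Sall4 and Zfp281 spanned 0.54 and 0.53 and exceeded 60.4% and 59.4% of them. Sall1 spanned 1.39 and Nr5a2 2.23, exceeding 92.9% and 98.0%. Nearly all of that span lay among the knockout clones: 2.06 of 2.23 for Nr5a2 and 1.22 of 1.39 for Sall1, against 0.40 and 0.21 among the non-targeted clones. The lowest count of any of the 6 genes was 465 reads, for which counting error alone is 4.64%.

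Within a library the genes could be set against each other, which removes the scaling. The CPM of Nr5a2 was 20.4%, 10.8% and 4.95% of that of Pou5f1 across the KO clones and 21.1%, 15.9% and 15.2% across the NT clones. An exact two-sided permutation test of the log2 ratio over the 6 libraries gave p = 0.3 (adjusted over the 2 ratios, p = 0.3), where 3 against 3 libraries cannot go below 0.1. The CPM of Sall1 was 37.1%, 24.7% and 21.1% of that of Sall4 in the knockout and 38.0%, 38.3% and 40.8% across the NT clones. The groups did not overlap, and the exact permutation test gave p = 0.1, the smallest it can give, and 0.2 after adjustment. Only these 2 ratios were tested, and the adjustment does not cover the other pairs of the 6 genes. The summed fibroblast list was highest in KO1 (2064 CPM), while its median gene, relative to the non-targeted mean, was highest in KO3, at 1.96 on the log2 scale against 0.64 in KO1 and 0.81 in KO2. Without Fn1 and Sparc, a subset formed after the values were seen, the sum was highest in KO3 (1060 CPM). In KO3 Pou5f1 stood at 86.5% of its non-targeted mean and Nr5a2 at 24.8%. The part of feeder RNA in these values was not tested.

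Levels between genes were compared per kilobase of merged exon (GENCODE M21, whose gene ends match the counted ones for all 6). In the non-targeted clones Pou5f1 was highest, at 347 ± 26.5 CPM per kilobase (SD, n = 3), followed by Sall4 at 118 ± 8.81, Tcf3 at 63.3 ± 4.29, Sall1 at 48.3 ± 3.87, Zfp281 at 42.0 ± 3.44 and Nr5a2 at 22.9 ± 3.36. Only Sall1 and Zfp281 overlapped among neighbours in this order. In the knockout these genes changed places, with 37.4 ± 6.5 for Zfp281 and 30.2 ± 13.2 for Sall1, within their spread. Reads were counted over whole gene bodies, and exons make up from 5.0% of the counted body in Nr5a2 to 95.8% in Zfp281, and intron reads are part of these levels. Per kilobase of the whole counted body the order in the non-targeted clones was different: Pou5f1 had a mean of 164 CPM per kilobase, Zfp281 40.2, Sall4 33.2, Sall1 15.02, Tcf3 10.6 and Nr5a2 1.15. Pou5f1 was highest and Nr5a2 lowest on both scales.

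To describe which other genes followed each profile, log2 CPM was centred on each gene's own mean, and the root mean square difference over the 6 libraries was taken to every tested gene with a mean of at least 5 CPM. Between the 6 genes themselves this difference was smallest for Pou5f1 and Tcf3, at 0.02, then 0.07 for Sall4 and Zfp281 and 0.29 for Nr5a2 and Sall1. Among the genes most like Pou5f1 were Tcf7l1 (0.01), the closest, and Smarcd1 (0.02), a subunit of the BAF remodelling complex. Among those most like Tcf3 were the proteasome ATPase Psmc5, the closest, and Tmem186 (0.02 each). Sall4 was followed most closely by Tgif1 (0.02), a corepressor of SMAD signalling, Inip (0.02) and Ttc39b (0.02). For Zfp281 they were Ogt (0.02), the O-GlcNAc transferase that binds Tet1, the deubiquitinase Usp9x (0.02) and the cohesin release factor Wapl (0.03).

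The profile most like that of Nr5a2 was Nanog (0.09), the homeodomain factor of the naive network, followed by Mreg (0.09) and Smtnl2 (0.13). Nanog had 471, 284 and 112 CPM across the KO clones against 564, 473 and 462 CPM. For Sall1 it was Fgf4 (0.03), the growth factor that Pou5f1 and Sox2 activate, with 258, 147 and 105 CPM across the KO clones and 277, 236 and 277 CPM across the NT clones, then Sema6c and Ak7 (0.06 each). With 6 libraries many genes share a profile, and flat profiles lie close to many others.

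**Figure D3:**
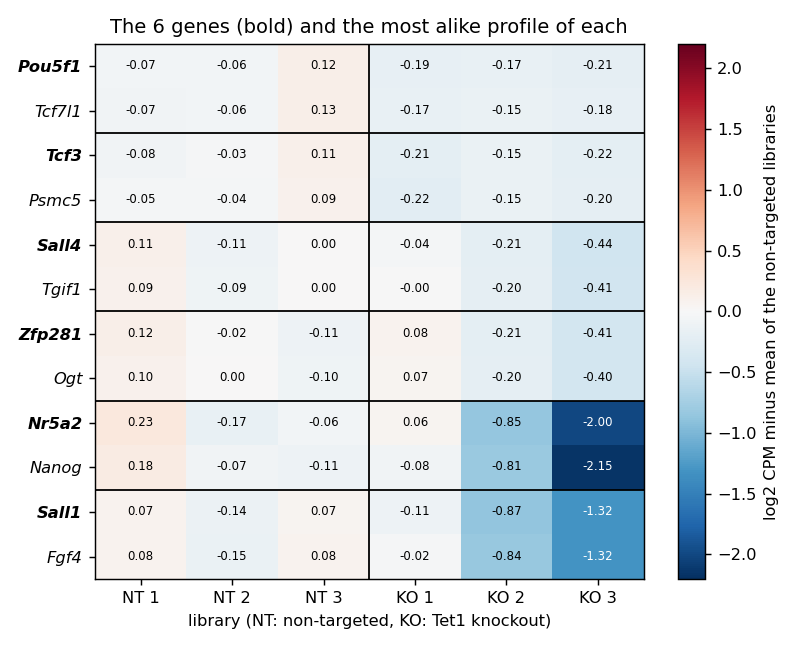
Log2 CPM minus the mean of the 3 non-targeted libraries (colour and printed value) for the 6 genes (bold), each followed by the gene with the most similar centred profile (y axis), in each library (x axis). Pou5f1 and Tcf3 lie near -0.2 in every knockout library, while Nr5a2 reaches -2.0 and Sall1 -1.32 in KO3.

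The relatives of the 6 genes showed the opposite direction in part. Of 10 tested relatives 0 passed in edgeR, and 4 had an unadjusted p under 0.05, as did 24.8% of all tested genes. In DESeq2, which called 5.5% of genes higher, 3 rose, and the list median was 0.37. In the SALL family, Sall2 had 22.5, 53.6 and 70.9 CPM across the KO clones and 8.80, 23.5 and 13.7 CPM across the NT clones. It rose in DESeq2 (edgeR log2 fold change 1.67 ± 0.47, SE; adjusted p = 0.124 in edgeR and 0.00423 in DESeq2), though KO1 lay below NT2. Sall3 had 13.6, 27.7 and 12.5 CPM against 9.04, 7.42 and 10.7 CPM, with no overlap, and rose in DESeq2 (0.98 ± 0.33, adjusted p = 0.144 in edgeR and 0.0453 in DESeq2). Of all tested genes 14.8% lay higher in every knockout than in every non-targeted library. KO2 was the highest for Sall3, and KO3 for Sall2.

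Among the E proteins, Tcf12 rose in DESeq2 from 63.8 ± 4.30 to 86.1 ± 11.5 CPM (SD, n = 3, edgeR log2 fold change 0.43 ± 0.11, adjusted p = 0.120 in edgeR and 0.0455 in DESeq2). Its groups did not overlap, with the knockout higher, as in 14.8% of all tested genes. Tcf4 had a log2 fold change of 0.11 ± 0.11. The number of DESeq2 calls among these relatives moved with the libraries used and was 4 without KO1, 0 without KO2, 1 without KO3, 0 without NT1, 1 without NT2 and 0 without NT3. The calls over all genes moved too, at 4106, 306, 265, 183, 763 and 128 in the same order. Among the POU relatives, Pou3f1, a factor of the primed epiblast, ran from 21.5 to 148 CPM across the KO clones and from 14.9 to 52.7 CPM in the non-targeted clones, and Pou2f1 had a log2 fold change of 0.07 ± 0.08. Pou5f2 and Pou3f3 were listed at 0 in every library.

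**Figure D4:**
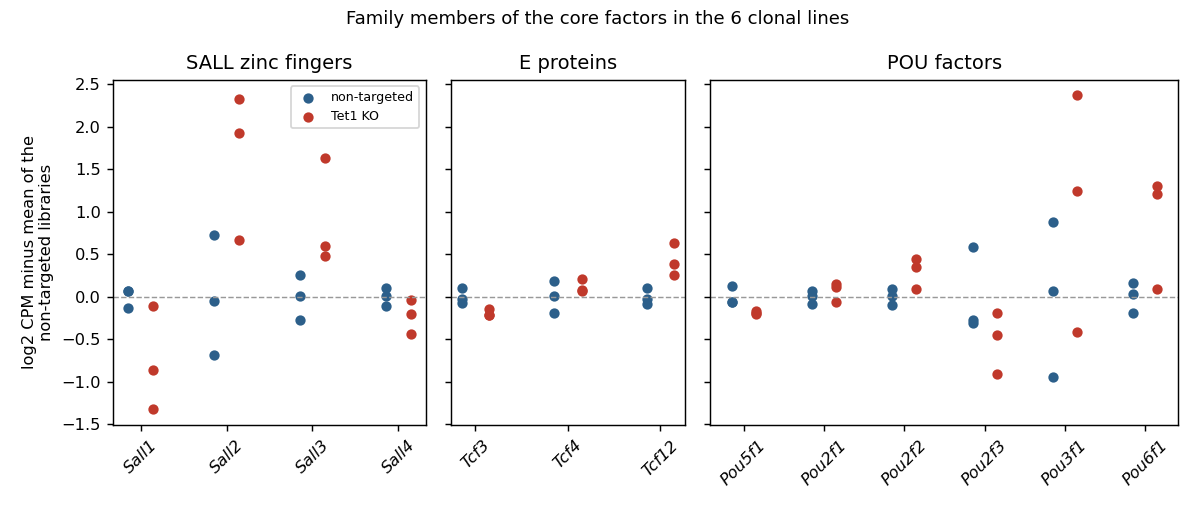
Log2 CPM minus the mean of the 3 non-targeted libraries (y axis) for tested members of the SALL, E protein and POU families (x axis), with 1 point per library. Knockout points of Sall1 reach -1.32, those of Sall2 lie above 0, and those of Pou5f1 and Tcf3 lie together just below 0.

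Other genes of the core network stood lower in the knockout as well. Their list shares genes with the targets of Pou5f1 and Sox2 and with the pluripotent cell markers. Nanog, Zfp42 and Utf1 are in all of these lists, so their results are not independent. Of 27 tested partners, 25 had a log2 fold change below 0, beside 49.7% of all tested genes, and the median was -0.40. In edgeR 0 passed, with 8 at an unadjusted p under 0.05, all lower, as were 10.8% of all tested genes. In DESeq2, which called 3.15% of genes lower, 2 fell. They were Stat3, the effector of LIF signalling, from 198 ± 14.6 to 135 ± 23.8 CPM (SD, n = 3, DESeq2 adjusted p = 0.0116), and the corepressor Trim28, from 2696 ± 271 to 2044 ± 229 CPM (SD, n = 3, DESeq2 adjusted p = 0.0405). Neither passed in DESeq2 when KO2, KO3, NT1 or NT3 was left out. Without KO1 edgeR called 16 of them, all lower, beside 29.1% of all genes tested in that comparison and 14% called lower. Otx2, a homeobox gene of the formative state, had 20.2, 20.4 and 16.7 CPM against 27.2, 27.6 and 23.0 CPM (-0.44 ± 0.14; DESeq2 adjusted p = 0.0688). Sox2, the main partner of Pou5f1, lies inside Sox2ot on the same strand in GENCODE M21 and was listed at 0 in every library. Since no option for reads over several genes was set in the counting, this 0 does not measure the level of Sox2. Among the pluripotent cell markers Dnmt3l, a cofactor of DNA methyltransferases, fell in DESeq2 from 505 ± 79.5 to 357 ± 34.7 CPM (SD, n = 3; DESeq2 adjusted p = 0.0235), the only call of 12 there, while edgeR called 0 (3 at an unadjusted p under 0.05). Dnmt3l too did not pass in DESeq2 without KO2, KO3, NT1 or NT3, and without KO1, where edgeR called 29.1% of all genes, the marker calls numbered 8 in either tool. Zfp42 (-0.53 ± 0.21) did not pass either test.

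Genes known as targets of Pou5f1 and Sox2 did not pass. Of 15 tested, 0 were called in edgeR and 0 in DESeq2, which called 8.65% of genes, and the list median was -0.24. An unadjusted p under 0.05 was reached by 5 (3 lower and 2 higher), beside 24.8% of all tested genes. Fbxo15 had 246, 185 and 116 CPM against 318, 252 and 304 CPM (-0.67 ± 0.25). Dppa4 had -0.35 ± 0.13 and the Nodal antagonist Lefty1 1.55 ± 0.57. Without KO1 edgeR called 11 of the 15 (10 lower and 1 higher), beside 29.1% of all genes tested (14% lower and 15.1% higher). DESeq2 without KO1 called 12 of the 15 and 4106 genes in all. With all libraries, 11 of the 15 had a log2 fold change below 0 and 4 above, where 49.7% of all tested genes lay below 0.

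Among 11 tested genes that Pou5f1 or Sall4 hold down in pluripotent cells, mostly trophoblast genes, the median was 0.49. In edgeR 0 passed, with 4 at an unadjusted p under 0.05 (3 higher and 1 lower), beside 24.8% of all tested genes. In DESeq2, which called 5.5% of genes higher, Eomes rose, from 6.27 ± 1.41 to 16.1 ± 6.65 CPM (SD, n = 3, DESeq2 adjusted p = 0.00381). Eomes did not pass in DESeq2 without KO2, NT1 or NT3, and without KO1, where edgeR called 29.1% of all genes, 4 genes of the list passed in either tool. The trophectoderm regulator Cdx2 stayed at or under 1.82 CPM in every library. The keratins Krt8 and Krt18 had 25.1, 74.8 and 158 CPM and 27.9, 68.9 and 148 CPM across the KO clones, while no NT clone exceeded 42.9 CPM for Krt8 or 45.5 CPM for Krt18 (edgeR adjusted p = 0.175 and 0.191). Both were highest in KO3, which also had the highest median of the fibroblast list, though not its highest sum. Without Fn1 and Sparc, a subset formed after the values were seen, the sum too was highest in KO3, at 1060 CPM. The part of fibroblast RNA in the keratin levels was not tested.

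Genes for protein partners of the factors gave no call with all libraries. None of the 14 NuRD subunits, the deacetylase complex that SALL proteins recruit, passed in edgeR or DESeq2, and the list median was -0.08. Over all genes edgeR called 0 and DESeq2 8.65%, so the lack of calls in lists this short is to be read against those shares. An unadjusted p under 0.05 was reached by 2, beside 24.8% of all tested genes. Hdac1 was lower in every knockout clone, at 163, 153 and 145 CPM against 192, 178 and 189 CPM (-0.28 ± 0.08; edgeR adjusted p = 0.122). In this position were 2 of the 14 subunits and 14.7% of all tested genes. Mta1 and Mta2 had 0.40 ± 0.16 and 0.16 ± 0.07. Of the inhibitors and partners of E proteins, 7 of 14 were above the filter and 0 passed in either test (0 at an unadjusted p under 0.05), with a median of 0.10. Id1 and Id3, which bind E proteins and keep them off DNA, had -0.41 ± 0.24 and 0.23 ± 0.18, and Hey1 had 0.44 ± 0.31. Without KO1 edgeR called 4 of the 14 NuRD subunits and 2 of the 7 tested genes of the E protein list, shares near the 29.1% of all genes called in that comparison.

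In the fibroblast list 0 of 22 passed in edgeR. An unadjusted p under 0.05 was reached by 18, all higher, beside 24.8% of all tested genes in either direction. In DESeq2, which called 5.5% of genes higher, 12 rose, and the list median was 1.31. Col6a2 had 14.6, 14.6 and 27.3 CPM against 6.38, 8.30 and 8.62 CPM (DESeq2 adjusted p = 0.00215), and Col5a1 (DESeq2 adjusted p = 0.00316) and Loxl1 (DESeq2 adjusted p = 0.0219) rose too. The DESeq2 count was 20 without KO1 (19 higher and 1 lower), 7 without KO2, 2 without KO3, 0 without NT1, 8 without NT2 and 1 without NT3. Over all genes the same comparisons called 4106, 306, 265, 183, 763 and 128.

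**Figure D5:**
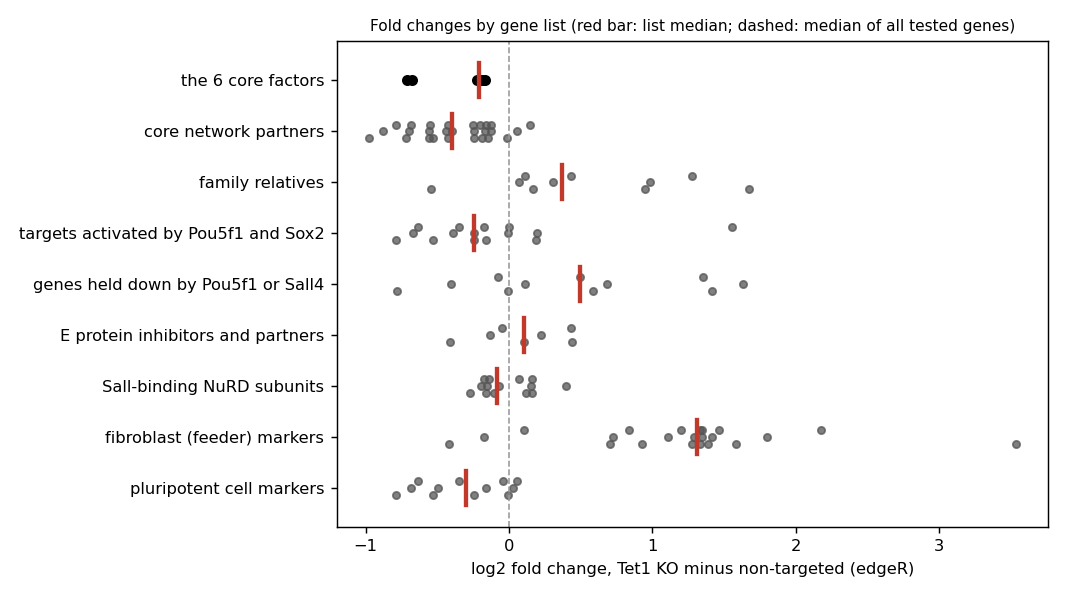
EdgeR log2 fold changes, knockout minus non-targeted (x axis), of the tested genes in each list (y axis), 1 point per gene, with the list median as a red bar and the median of all tested genes, 0.00, as a dashed line. The 6 core factors have a median of -0.21, the core network partners -0.40 and the fibroblast markers 1.31.

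Of the 12 tested genes next to the 6 factors 0 passed in edgeR, with Gm19705 and Kif14, on either side of Zfp281, at an unadjusted p under 0.05. Of all tested genes 24.8% had such a p. In DESeq2, which called 8.65% of genes, 1 of the 12 passed. It was the predicted gene Gm19705 downstream of Zfp281, which had 17.6, 12.2 and 8.77 CPM against 26.1, 22.6 and 21.9 CPM (-0.88 ± 0.25, edgeR adjusted p = 0.124, DESeq2 adjusted p = 0.0174). Zfp281 and Nr5a2 lie 212517 bases apart on chromosome 1. Gm19705 lies between them, as does Platr22, which had -0.05 ± 0.13, and Nek7 beyond Nr5a2 had -0.06 ± 0.13. Atp9a, next to Sall4, had 57.9, 34.4 and 22.3 CPM against 64.8, 53.1 and 55.2 CPM (-0.59 ± 0.31), and Zfp64 on the other side had 0.00 ± 0.08. Beside Sall1, Cyld had -0.08 ± 0.16 and Tox3 0.99 ± 0.50, and beside Tcf3, Uqcr11 had -0.10 ± 0.12 and Atp8b3 0.78 ± 0.49. None of the 6 genes shares bases with another gene on its own strand. On the opposite strand, Gm19553 over Pou5f1 and Gm14261 over Sall4 had at most 50 and 14 reads in any library.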

How the data were processed

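Polyadenylated RNA of 6 clonal lines was sequenced in stranded libraries, in a single sequencing batch per the labels. What the authors deposited is a table of raw counts, 1 whole number for each gene and library. The header of that table records featureCounts 1.6.2, run reverse-stranded over GENCODE M15 gene bodies with their introns. HISAT2 2.1.0, DESeq2 1.18.1, mm10 and another featureCounts version, 1.5.3, are named in the submitters' processing notes. No option for multi-mapping reads or reads over several genes was set.

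Genes were kept with filterByExpr (minimum count 10, minimum total 15). Main results come from TMM-scaled CPM and the quasi-likelihood test of edgeR, fitted on group alone, with p-values adjusted by Benjamini-Hochberg over 14664 genes. Each standard error is the log2 fold change divided by the root of F, and intervals are 95%. DESeq2, limma voom, other scalings, no filter, a replicate block and leaving out each library were alternatives. The versions were DESeq2 1.42.0, limma 3.58.1 and edgeR 4.0.16 under R 4.3.3, and the computation was tested on simulated data.

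The members and the 8 gene lists were chosen with earlier results of these data known. Named were Tet1, the 6 members, Tcf7l1, up to 3 genes per list by smallest p, the 3 most alike profiles per member (mean at least 5 CPM, no predicted genes) and the tested neighbours. 1 gene that this rule would name is not reported here. Other genes named were chosen after their values were seen.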

Additional observations from a re-analysis of the deposited data

How the results depend on the processing

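Under every alternative run, all 6 genes kept a log2 fold change below 0. RLE and upper-quartile scaling, no filter, DESeq2, limma voom and the replicate block gave no call among them. Leaving out single libraries gave -0.23 to -0.13 for Pou5f1, -0.33 to -0.12 for Sall4, -0.32 to -0.059 for Zfp281, -1.33 to -0.33 for Nr5a2, -0.24 to -0.14 for Tcf3 and -1.09 to -0.44 for Sall1, and 0 to 4 called members, the 4 only without KO1. Over all genes, where edgeR called 0, the count was 159 with no filter, 1232 in DESeq2, 1 in limma voom, 3 with the replicate block and 0 to 4404 when single libraries were left out. DESeq2 called 4106, 306 and 265 genes without KO1, KO2 and KO3 and 183, 763 and 128 without NT1, NT2 and NT3.

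The lists, with 0 calls in edgeR, gave in DESeq2 2 core network partners, 3 family relatives, 1 gene held down by Pou5f1 or Sall4, 12 fibroblast markers and 1 pluripotent cell marker. With single libraries left out, in edgeR or in DESeq2 (the latter added after seeing the data), the ranges were 0 to 16, 0 to 5, 0 to 4, 0 to 20 and 0 to 8 for these lists, 0 to 12 for targets of Pou5f1 and Sox2, 0 to 3 for E protein inhibitors and partners and 0 to 4 for NuRD subunits. DESeq2 called 15 partners without KO1 and 2 without NT2, 7 fibroblast markers without KO2, 2 without KO3, 8 without NT2 and 1 without NT3, and edgeR called 11 targets without KO1. Each highest count was without KO1; its cause was not tested.

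No label pairs the same-numbered clones of the groups. The correlations of their deviations from the group means were 0.43, 0.10 and -0.02 for replicates 1 to 3. KO1 and KO2 each correlated best with the same-numbered clone, while KO3 correlated best with NT2 (0.44). With the replicate block the log2 fold changes were -0.19 for Pou5f1, -0.23 for Sall4, -0.18 for Zfp281, -0.91 for Nr5a2, -0.19 for Tcf3 and -0.76 for Sall1, none past the threshold (lowest edgeR adjusted p = 0.103).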
